A study of Mus musculus with 17 samples.

Results

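The subunits of the 5 complexes of oxidative phosphorylation were described in the hypothalamus of 2 mouse models of diabetes. Members were the probe sets of the array that carry a single gene symbol starting with Nduf (complex I), Sdh (complex II), Uqcr or the symbol Cyc1 (complex III), Cox4 to Cox8 (complex IV) or Atp5 (complex V). The rule found 161 of 22626 probe sets, for 88 genes: 39 of complex I, 7 of complex II, 9 of complex III, 16 of complex IV and 17 of complex V. It used the symbols and no measured value. The symbols also take in genes that are not subunits: the assembly factors Ndufaf1, Ndufaf3, Ndufaf4, Ndufaf5, Ndufaf7, Sdhaf1, Sdhaf2 and Sdhaf4 help to build complexes I and II, and Cox7a2l joins complexes into supercomplexes. Ndufa4 keeps its complex I name here, although its protein is now regarded as part of complex IV.

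Hypothalami of 17 mice were each profiled on an Affymetrix expression array. All mice were C57Bl/6 males aged 9 weeks. The 5 ob/ob mice carry the genotype ob/ob, which lacks working leptin and makes mice obese and insulin-resistant, and the labels state no injection for them. The 6 STZ mice were wildtype and had received 1 intraperitoneal injection of streptozotocin, which destroys the beta cells that make insulin, at 200 µg/g body weight. The 6 control mice were wildtype and were injected with vehicle. Both models were set against the same controls. The tissue is the whole hypothalamus, so fewer cells of a type and less RNA per cell cannot be told apart.

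Oxidative phosphorylation makes most of the ATP of a neuron. Complex I takes electrons from NADH and complex II takes them from succinate, coenzyme Q carries them to complex III, and cytochrome c carries them on to complex IV, where oxygen is reduced to water. Complexes I, III and IV pump protons out of the mitochondrial matrix, and complex V, the ATP synthase, uses their return to make ATP. Most subunits are encoded in the nucleus, while a few core ones are encoded in mitochondrial DNA.

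No member passed the test in any comparison. The values are MAS5 signals, on a linear scale after the authors' scaling, and differences are between group means of log2 signal, fitted with limma on 13576 probe sets that passed a filter on dim ones (a geometric mean signal over 17 arrays of at least 435). Of the members, 146 probe sets for 84 genes passed that filter. At a Benjamini-Hochberg adjusted p under 0.05, limma called 0 of the 146 in ob/ob against control, where it called 0.125% of all probe sets tested. It called 0 of 146 in STZ against control, where the background was 0.0516%, and 0 of 146 in ob/ob against STZ, where it was 0.0368%. With each gene represented by its brightest probe set, 6 of 84 member genes had an unadjusted limma p under 0.05 in ob/ob against control, beside 12% of all 7990 genes tested. The count was 6 of 84 in STZ against control, beside 8.51% of all genes, and 0 of 84 in ob/ob against STZ, beside 4.19%. In quantile-normalised signals limma called 1 member probe set, of Cox6a1 in ob/ob against control, and in the other alternatives 0. Quantile normalisation also raised the calls over all 13576 probe sets in that comparison, to 29 from 17.

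The intervals were narrow. In ob/ob against control, the 95% interval of the difference lay within 1.2-fold in either direction for 74 of 84 genes, beside 53.6% of all genes tested. The same held for 76 of 84 genes in STZ against control, beside 59.9%, and for 76 of 84 in ob/ob against STZ, beside 61%. Over all 84 genes the lowest and highest bounds of these intervals were -0.31 and 0.36 in ob/ob against control and -0.36 and 0.43 in STZ against control, on the log2 scale. The member probe sets gave high signals, with a median of 8186 beside 1629 for all genes tested, and bright probe sets vary less between arrays. The median standard error of a member was 0.054 in ob/ob against control, beside 0.081 for all genes and 0.051 for the 895 genes at or above the lower quartile of member signal (5865). Of those 895 genes, which include members, 91.8% in ob/ob and 94.4% in STZ against control had intervals within 1.2-fold. Between ob/ob and STZ it was 95.9%. The shares of the 84 members were slightly lower, at 88.1%, 90.5% and 90.5%. Signals of different probe sets depend on their probes and are not compared here as transcript levels.

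**Figure D1:**
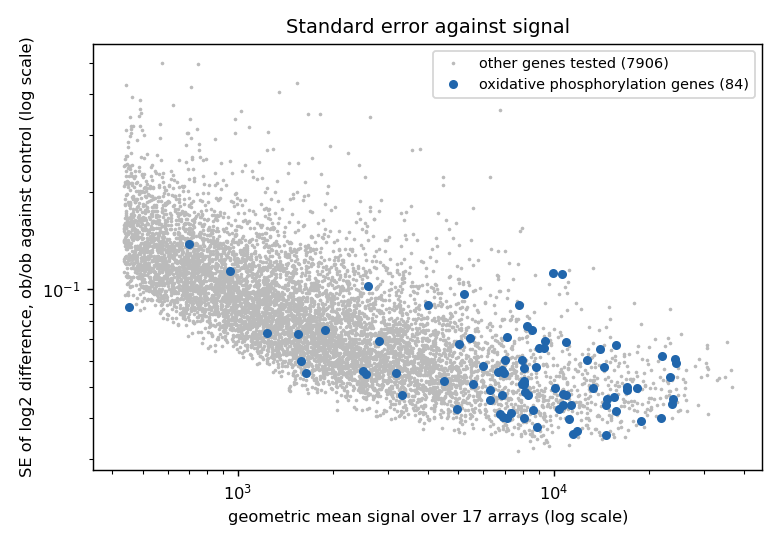
Standard error of the log2 difference between ob/ob and control hypothalami, against the geometric mean signal over 17 arrays (both axes log), for the 84 oxidative phosphorylation genes (blue) and the other genes tested (grey). Most of the blue points lie at the bright end, where standard errors are small.

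Most member differences from control lay slightly below 0, as they did for bright genes in general. In ob/ob against control 53 of 84 genes (63.1%) lay below 0, beside 48.1% of all genes and 65.4% of the 895 bright ones, which include members. Their median difference was -0.025, beside 0.0053 for all genes and -0.024 for the bright ones. In STZ against control 55 of 84 genes (65.5%) lay below 0, beside 48.3% of all genes and 61.6% of the bright ones, with a median of -0.018 beside 0.0044 and -0.013. Between ob/ob and STZ hypothalami 41 of 84 genes (48.8%) lay below 0 and the median was 0.0017. The 2 comparisons with control share their control arrays and so are not independent of each other.

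The median differences of all 5 complexes were small. The median difference between ob/ob and control hypothalami was -0.019 over the 39 genes of complex I, -0.047 over the 7 of complex II, -0.033 over the 9 of complex III, -0.0020 over the 12 tested of complex IV and -0.026 over the 17 of complex V. For STZ against control these medians were -0.013 for complex I, -0.030 for complex II, -0.026 for complex III, -0.016 for complex IV and -0.013 for complex V. Between ob/ob and STZ hypothalami all 5 lay from -0.0094 (complex IV) to 0.0088 (complex I).

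The mean log2 signal of each complex overlapped between the groups. For complex I it was 12.66 ± 0.046 in ob/ob (SD, n = 5), 12.66 ± 0.040 in STZ (n = 6) and 12.68 ± 0.048 in control hypothalami (n = 6). For complex II it was 12.09 ± 0.044 in ob/ob, 12.06 ± 0.053 in STZ and 12.11 ± 0.046 in control hypothalami. In both complexes the ranges of the 3 groups overlapped, and for complex II the gap between STZ and control hypothalami was about as large as the SD of a group. Control 4 was among the highest 3 of the 17 arrays in all 5 complexes and STZ 3 in 4 of them, while STZ 2 was among the lowest 3 in 4 complexes and ob/ob 1 in 3. The complexes thus tended to be high or low together in a given array, and such arrays came from each of the 3 groups.

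**Figure D2:**
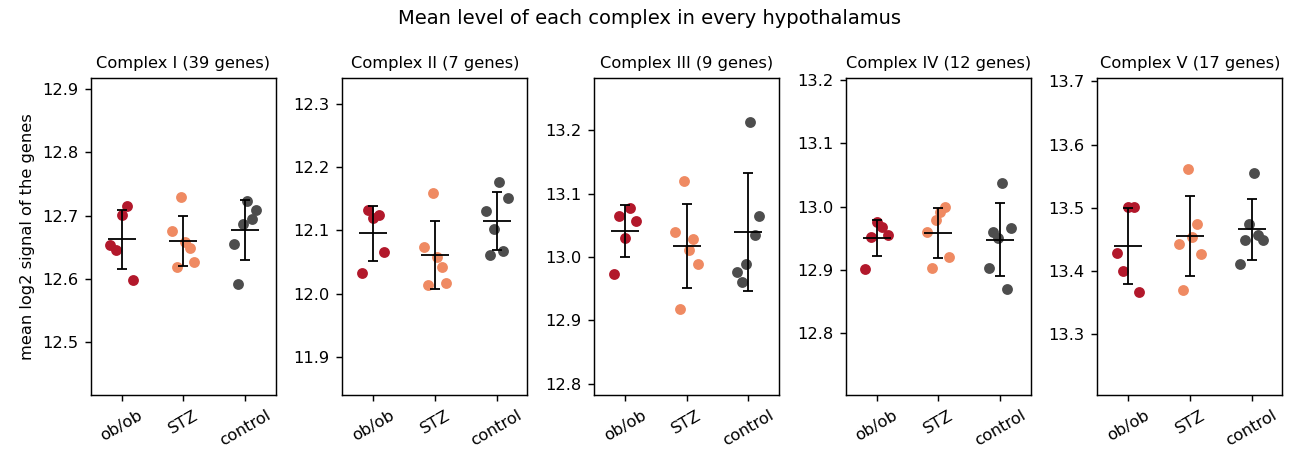
Mean log2 signal over the tested genes of each complex in every ob/ob, STZ and control hypothalamus. Points are arrays, the dash is the group mean and the bars are its SD; the axes do not start at 0, and the groups overlap in every complex.

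**Figure D3:**
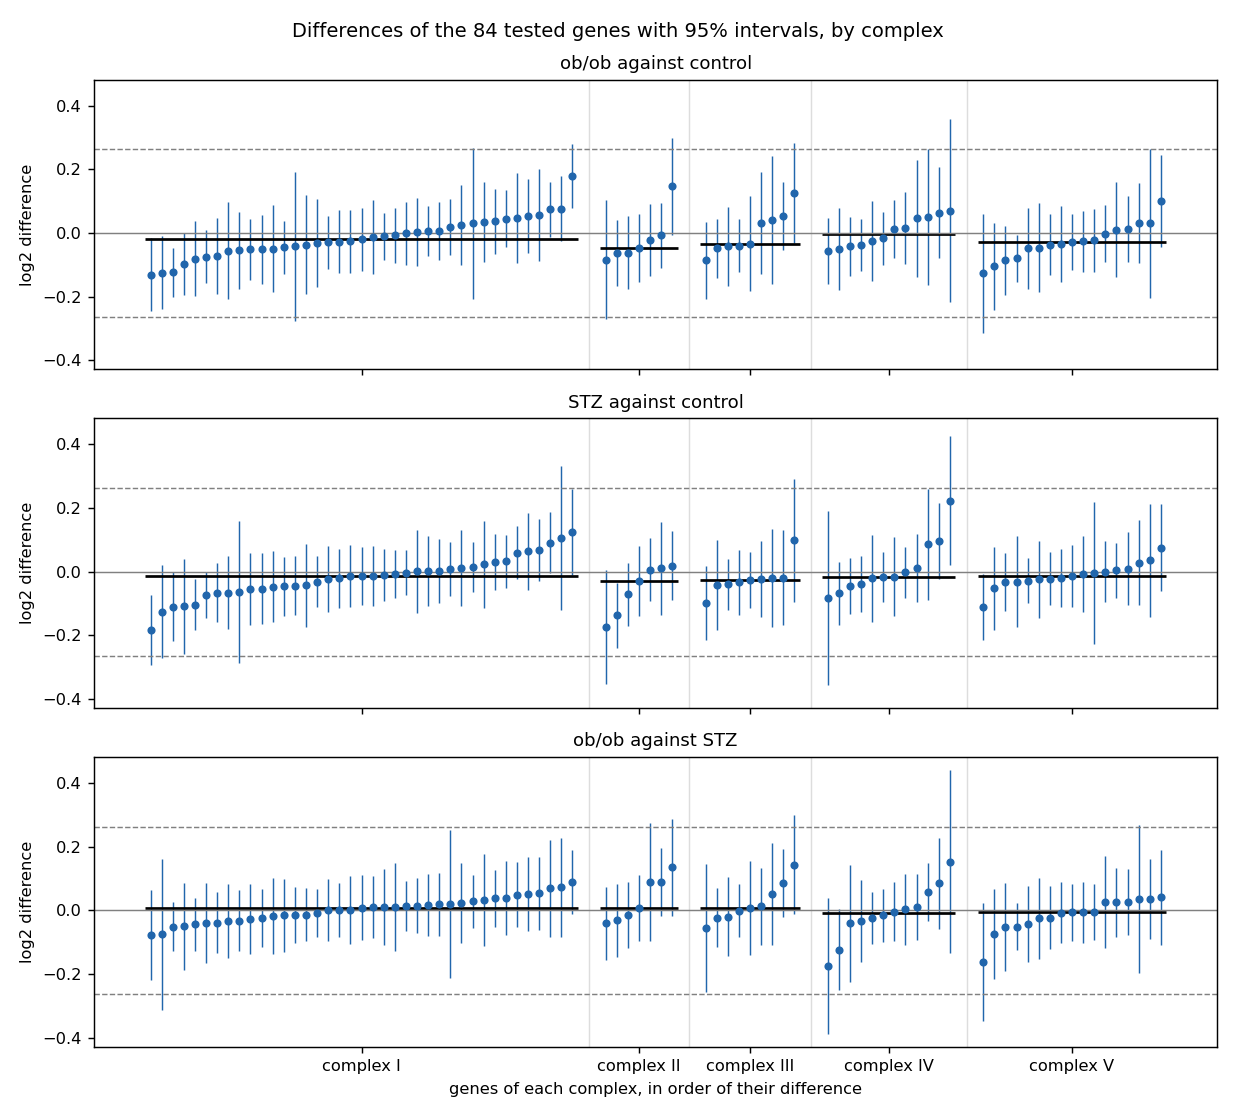
Log2 difference of each of the 84 tested genes with its 95% interval, by complex and in order of size, for the 3 comparisons. The black line is the median of the complex and the dashed lines mark 1.2-fold; most intervals stay between them.

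The promoters of 4 members are shown because these genes had the smallest unadjusted p of a member in a comparison with control: Cox6a1, Ndufv1 and Ndufb5 in ob/ob, and Ndufaf7 in STZ hypothalami. Each is the 250 bases before the transcription start, from RefSeq on GRCm38.p6, 5′ to 3′ on the strand of the gene. Capitals mark 4 motifs searched on both strands: GCGC and TGCGC with any 1 base between them for NRF1, CCGGAAG for GABP, AANATGGC for YY1 and GGGCGGG for SP1, all factors that act at many nuclear genes of the respiratory chain. A match on the opposite strand appears as its reverse complement.
Cox6a1, chr5:115348959-115349208, minus strand: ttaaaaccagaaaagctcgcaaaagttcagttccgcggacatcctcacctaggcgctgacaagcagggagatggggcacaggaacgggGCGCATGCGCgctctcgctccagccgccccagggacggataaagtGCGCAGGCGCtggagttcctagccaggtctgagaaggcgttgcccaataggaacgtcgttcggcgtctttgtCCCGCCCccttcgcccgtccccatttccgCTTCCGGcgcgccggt
Ndufv1, chr19:4012756-4013005, minus strand: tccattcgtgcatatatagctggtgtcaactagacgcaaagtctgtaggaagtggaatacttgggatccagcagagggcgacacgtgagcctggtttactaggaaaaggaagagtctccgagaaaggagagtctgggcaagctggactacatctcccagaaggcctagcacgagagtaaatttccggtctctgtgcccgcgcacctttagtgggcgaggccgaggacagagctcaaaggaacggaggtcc
Ndufb5, chr3:32736813-32737062, plus strand: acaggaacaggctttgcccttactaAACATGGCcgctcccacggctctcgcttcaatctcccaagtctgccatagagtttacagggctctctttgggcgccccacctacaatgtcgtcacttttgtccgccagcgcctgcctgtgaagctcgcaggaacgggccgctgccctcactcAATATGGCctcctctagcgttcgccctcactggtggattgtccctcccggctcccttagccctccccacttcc
Ndufaf7, chr17:78936885-78937134, plus strand: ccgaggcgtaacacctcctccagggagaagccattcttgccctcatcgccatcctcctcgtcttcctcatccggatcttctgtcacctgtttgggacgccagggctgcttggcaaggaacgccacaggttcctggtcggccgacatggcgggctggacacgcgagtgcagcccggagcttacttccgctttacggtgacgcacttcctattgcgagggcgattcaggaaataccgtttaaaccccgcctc
The Cox6a1 window holds 2 NRF1 matches, at bases -162 to -153 and -117 to -108 from the start, with an SP1 match at -45 to -39 and a GABP match at -16 to -10. The Ndufb5 window holds 2 YY1 matches, at -225 to -218 and -73 to -66. None of the 4 motifs is spelled in the windows of Ndufv1 and Ndufaf7, which says only that these letters are not there. The matches do not overlap each other.

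RefSeq windows were matched for 73 of the 88 member genes, 78 windows in all. NRF1 letters were found in 12 of the 78 (15.4%), beside 3.74% of all 32851 windows of that length. GABP letters were found in 14 (17.9%), beside 6.91%, and YY1 letters in 8 (10.3%), beside 3.91%. SP1 letters were found in 23 (29.5%), beside 23.4%. By complex, the NRF1 letters were in 5 of 38 windows of complex I, 2 of 6 of complex II, 0 of 5 of complex III, 1 of 11 of complex IV and 4 of 18 of complex V. These are counts of letters, not of bound sites.

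Of the genes with groups that did not overlap, ob/ob against control had 2 among the members, Ndufv1 and Ndufb5, and these went opposite ways. That is 2.38% of the 84 members, beside 1.75% of all genes tested and 3.02% of the 895 bright ones in this comparison. Ndufv1 encodes the core subunit of complex I that binds NADH and the flavin. Its brightest probe set had signals of 8085, 8757, 9009.5, 8784 and 8726 in the ob/ob hypothalami, 7404 to 8777 (median 8157) in STZ and 6848 to 8025 (median 7746) in control hypothalami. Every ob/ob value lay above every control value, and the STZ values overlapped both. The log2 difference was 0.18 ± 0.048 (SE) for ob/ob against control, with a limma adjusted p of 0.122, and 0.092 ± 0.046 for STZ against control (adjusted p = 0.621). The other probe sets of Ndufv1 gave 0.060 and 0.12 for ob/ob against control, with groups that overlapped.

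Ndufb5 encodes an accessory subunit in the membrane arm of complex I. Its brightest probe set had signals of 11650.0, 10993, 11578, 11782 and 10878 in the ob/ob hypothalami, 11139.6 to 12159 (median 11924) in STZ and 11852 to 12899.6 (median 12472) in control hypothalami. All 5 ob/ob values lay below all 6 control values, and STZ values overlapped both. The log2 difference was -0.12 ± 0.036 for ob/ob against control (limma adjusted p = 0.164) and -0.073 ± 0.035 for STZ against control (adjusted p = 0.604). The second probe set of the gene showed 0.0041 ± 0.059 for ob/ob against control, so the size seen on the brightest one was not seen there.

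The other core subunits of complex I, which carry iron-sulfur clusters and form the quinone site, had differences near 0. Ndufs1, the largest of them, had geometric mean signals of 4943 in ob/ob, 4989.7 in STZ and 4879 in control hypothalami. Its differences from control were 0.019 ± 0.043 in ob/ob (95% interval -0.070 to 0.11) and 0.032 ± 0.041 in STZ (-0.052 to 0.12). Ndufv2, partner of Ndufv1 in the NADH module, had differences of -0.010 ± 0.036 in ob/ob and -0.0032 ± 0.034 in STZ. These are among the most precise values of the complex. Ndufs3 stood at 0.037 ± 0.049 in ob/ob and -0.013 ± 0.046 in STZ, and Ndufs7, next to the quinone site, at -0.045 ± 0.040 in ob/ob and -0.032 ± 0.038 in STZ. A second Ndufs7 probe set stood at -0.10 ± 0.039 in ob/ob (limma adjusted p = 0.287) with groups that did not overlap, 1 of 3 such member probe sets of 146 in this comparison, beside 1.91% of all probe sets. Ndufs8, which carries 2 iron-sulfur clusters, was the least precise of the core, at -0.042 ± 0.11 in ob/ob and -0.063 ± 0.11 in STZ. Over the 6 core genes tested, 3 lay above 0 in ob/ob and 2 in STZ.

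The 28 accessory genes of complex I, which surround and steady the core, lay between -0.12 and 0.076 in ob/ob against control, 11 above 0 and 17 below. In STZ against control they lay between -0.11 and 0.12, 12 above 0 and 16 below. Ndufab1, the mitochondrial acyl carrier protein that also serves fatty acid synthesis, had signals of 7061, 6974, 7179.9, 7249.6 and 6878 in ob/ob, 6634 to 7428 (median 6875) in STZ and 7065 to 7958 (median 7448) in control hypothalami. Its groups overlapped, with differences of -0.075 ± 0.040 in ob/ob and -0.10 ± 0.038 in STZ (limma adjusted p = 0.459). Averaged over its tested probe sets, Ndufab1 stood at -0.027 in ob/ob and -0.060 in STZ. Ndufc1 and Ndufa1, small membrane subunits named after their values were seen, stood at -0.12 ± 0.055 and -0.098 ± 0.046 in ob/ob hypothalami, with limma adjusted p of 0.372 and 0.415. At the other end Ndufb9 stood at 0.076 ± 0.049 in ob/ob and Ndufb7 at 0.12 ± 0.065 in STZ, also named after their values were seen. A second probe set of Ndufb7 did not show this rise, with signals of 3228 to 3810 in STZ and 3356 to 3800 in control hypothalami. Ndufs4, an accessory subunit whose loss in mice causes a disease like Leigh syndrome, had -0.0011 ± 0.047 in ob/ob and -0.012 ± 0.045 in STZ. Ndufs4 was likewise chosen after its values were seen.

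Of the 5 assembly factors of complex I tested, 4 lay below 0 in both comparisons with control, and the median was -0.036 in ob/ob and -0.11 in STZ. Ndufaf7, a methyltransferase that acts in the assembly of the complex, was the 1 member gene of 84 whose STZ and control groups did not overlap, beside 0.501% of all genes. It had signals of 1717, 1484, 1759, 1606 and 1512 in ob/ob hypothalami, 1479.8 to 1606 (median 1567) in STZ and 1702 to 1887 (median 1749) in control hypothalami. All 6 STZ values lay below all 6 control values, while the ob/ob values spread over both. The log2 difference was -0.13 ± 0.055 in ob/ob (limma adjusted p = 0.351) and -0.18 ± 0.052 in STZ (adjusted p = 0.276). Ndufaf4 and Ndufaf5, named after their values were seen, stood at -0.13 ± 0.070 and -0.11 ± 0.072 in STZ, and Ndufaf1 and Ndufaf3 at 0.011 and -0.053.

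**Figure D4:**
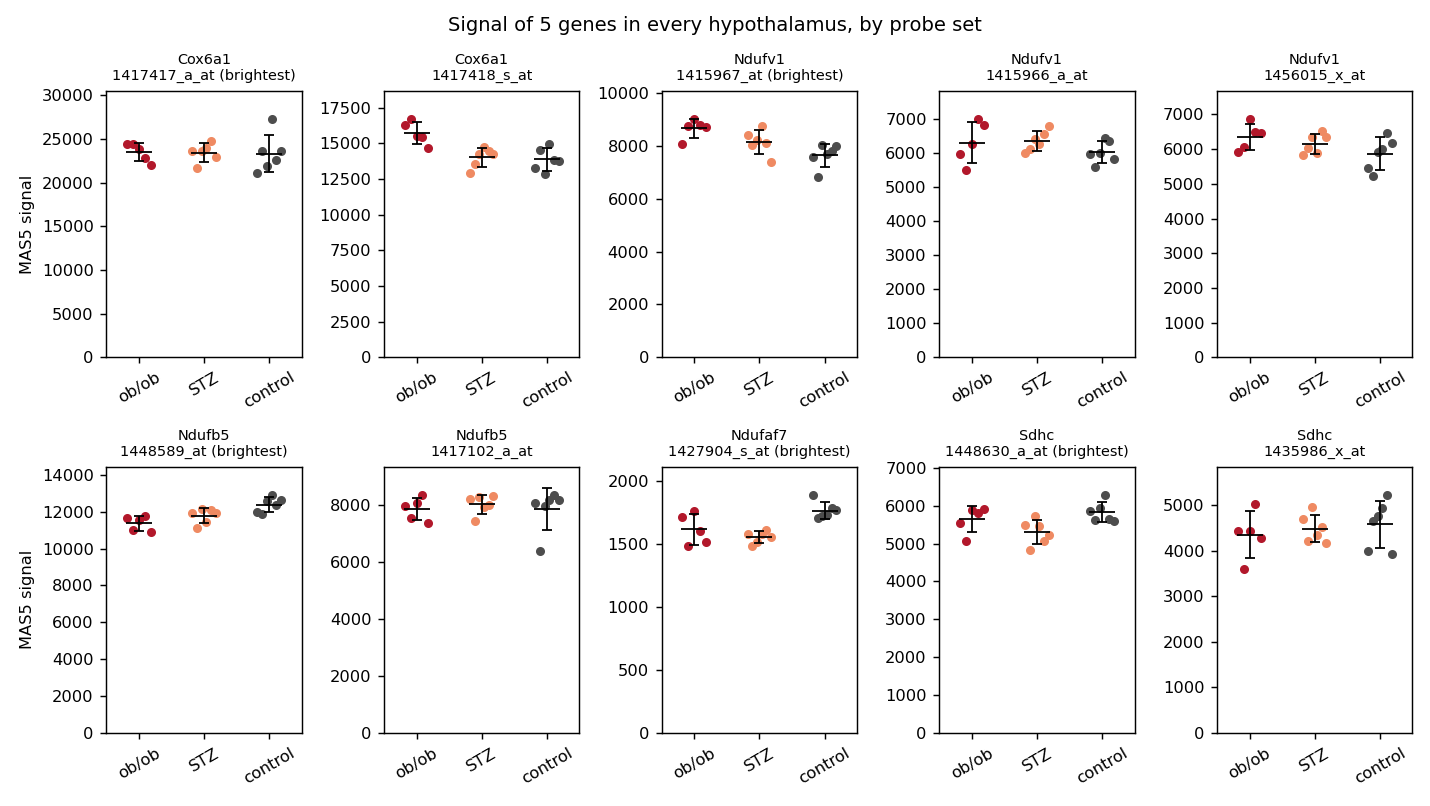
MAS5 signal of every tested probe set of Cox6a1, Ndufv1, Ndufb5, Ndufaf7 and Sdhc in every ob/ob, STZ and control hypothalamus. Points are arrays, the dash is the mean and the bars are the SD; probe sets of a gene can be compared in the size of the gap between groups.

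In complex II no gene passed the threshold in either model. Sdhc, 1 of the 2 anchor proteins that hold heme and bind coenzyme Q, had signals of 5545, 5074, 5881, 5795 and 5915 in ob/ob, 4836 to 5734 (median 5338) in STZ and 5595 to 6276 (median 5749) in control hypothalami. The STZ values were mostly low, but overlapped the control values. The difference was -0.047 ± 0.051 in ob/ob and -0.14 ± 0.049 in STZ (limma adjusted p = 0.443), and the second probe set gave -0.026 in STZ. Averaged over both, the STZ value of Sdhc was -0.081. Sdhd, the other anchor, stood at -0.083 ± 0.089 in ob/ob and -0.17 ± 0.085 in STZ (adjusted p = 0.617); STZ 3 was far above the other STZ arrays, and without it the STZ value was -0.24. Averaged over its tested probe sets, the STZ value of Sdhd was -0.083. Sdha, the flavoprotein that oxidises succinate, stood at -0.064 ± 0.050 in ob/ob and -0.071 ± 0.047 in STZ. Sdhb, its iron-sulfur partner, stood at -0.0073 ± 0.049 in ob/ob and 0.0065 ± 0.047 in STZ. Sdhaf1, which helps to load iron-sulfur clusters into Sdhb, had the highest value of the complex in ob/ob, 0.15 ± 0.073 (adjusted p = 0.441), and 0.011 ± 0.070 in STZ.

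In complex III the 9 genes lay between -0.085 and 0.13 in ob/ob against control, 4 above 0, and between -0.098 and 0.098 in STZ against control, 1 above 0. Uqcrc1, a core protein of the matrix side, had signals of 8298, 8568, 8559, 8849 and 11719.6 in ob/ob, 7915 to 8696 (median 8236) in STZ and 7926 to 9978 (median 8045) in control hypothalami. The groups overlapped, and a single high array in each of ob/ob (ob/ob 5) and control (control 4) set the upper ends. Its difference was 0.13 ± 0.075 in ob/ob (limma adjusted p = 0.538), 0.035 without ob/ob 5, and -0.018 ± 0.071 in STZ. Cyc1, the cytochrome that hands electrons to cytochrome c, stood at 0.054 ± 0.051 in ob/ob and -0.033 ± 0.048 in STZ. Uqcrfs1, the Rieske iron-sulfur protein, stood at -0.040 ± 0.040 in ob/ob and -0.040 ± 0.038 in STZ. Of the small subunits, Uqcrq stood at -0.085 ± 0.058 in ob/ob and -0.098 ± 0.055 in STZ. Uqcr10, the 1 member above 0 in STZ, stood at 0.042 ± 0.096 in ob/ob and 0.098 ± 0.092 in STZ; averaged over its tested probe sets its STZ value was -0.065, below 0.

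In complex IV, Cox6a1, the widely expressed form of a subunit that helps to regulate the enzyme, gave different answers on its 2 probe sets. The second brightest had signals of 16306, 16670.3, 15493, 15418 and 14663 in ob/ob, 12887 to 14715 (median 14236) in STZ and 12859.6 to 14958 (median 13791) in control hypothalami. Of the ob/ob values 4 lay above every control value and the lowest did not. The difference was 0.18 ± 0.046 for ob/ob against control (limma adjusted p = 0.108), 0.015 ± 0.044 for STZ against control and 0.17 ± 0.046 for ob/ob against STZ (adjusted p = 0.757). After quantile normalisation it was 0.20 ± 0.039 for ob/ob against control with an adjusted p of 0.0389, the 1 member past the threshold in any setting. The brightest probe set had signals of 24436, 24420.0, 23864, 22845 and 22086 in ob/ob, 21723 to 24818 (median 23659) in STZ and 21107 to 27254 (median 23066) in control hypothalami. Its groups overlapped throughout, at 0.016 ± 0.054 for ob/ob against control. The 2 NRF1 matches printed above lie in the promoter of this gene, and their part in these values was not tested.

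The other widely expressed subunits of complex IV had differences near 0. Cox4i1, which carries a regulatory site for ATP, had geometric mean signals of 21707 in ob/ob, 21938 in STZ and 21961 in control hypothalami, with differences from control of -0.017 ± 0.040 in ob/ob (95% interval -0.10 to 0.067) and -0.0015 ± 0.038 in STZ (-0.081 to 0.078). Cox5a and Cox5b, partners of the catalytic core, stood at -0.039 ± 0.039 and 0.013 ± 0.044 in ob/ob and at -0.016 ± 0.037 and -0.045 ± 0.042 in STZ. Cox6b1, which faces cytochrome c, stood at -0.056 ± 0.050 in ob/ob and -0.067 ± 0.047 in STZ. Over the 9 widely expressed subunits tested, 4 lay above 0 in ob/ob and 2 in STZ. Cox7a2 and Cox8a, the forms of non-muscle tissues, stood at -0.042 ± 0.044 and 0.065 ± 0.069 in ob/ob and at -0.038 ± 0.042 and -0.020 ± 0.065 in STZ.

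Tissue-restricted forms of complex IV were mostly dim on these arrays. Cox4i2 (lung), Cox7a1 and Cox8b (heart and muscle) and Cox6b2 (testis) lay below the signal filter and had no test, with geometric mean signals over 17 arrays of 399, 337, 105 and 307. Cox4i2 had signals of 525, 374, 405, 416 and 413 in ob/ob, 362 to 501 (median 421) in STZ and 319.8 to 448 (median 348) in control hypothalami, with groups that overlapped. Cox6a2, the heart and muscle form of Cox6a1, passed at 700.2 and stood at 0.071 ± 0.14 in ob/ob and -0.082 ± 0.13 in STZ. Just outside the filter were Cox4i2 and a probe set of Uqcrq at 418, and just inside it was Cox7c at 451. Cox8c, known mainly from testis, had signals of 2362, 1875, 2626, 2788 and 3068 in ob/ob, 2537 to 3111 (median 2869) in STZ and 1957 to 2685 (median 2532) in control hypothalami. The groups overlapped, and the difference of 0.22 ± 0.098 in STZ was the highest of any member there (limma adjusted p = 0.549), beside 0.051 ± 0.10 in ob/ob. Cox7a2l, the supercomplex factor, stood at -0.026 ± 0.060 in ob/ob and 0.097 ± 0.058 in STZ. For ob/ob against STZ it stood at -0.12 ± 0.060, not past the threshold.

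In complex V the subunits of the catalytic head had differences near 0 in both models. Atp5b, the beta subunit that holds the catalytic sites, had geometric mean signals of 23799 in ob/ob, 23917 in STZ and 24219 in control hypothalami. Its differences from control were -0.025 ± 0.046 in ob/ob (95% interval -0.12 to 0.070) and -0.018 ± 0.044 in STZ (-0.11 to 0.073). Atp5a1, the alpha subunit, stood at 0.014 ± 0.050 in ob/ob and -0.013 ± 0.047 in STZ. Atp5c1, the rotating gamma subunit, stood at -0.037 ± 0.046 in ob/ob and -0.032 ± 0.044 in STZ. Atp5e, the epsilon subunit, had the highest value of the complex in both, 0.10 ± 0.069 in ob/ob and 0.076 ± 0.066 in STZ, neither past the threshold.

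The c ring, which turns as protons pass, is made of a single protein encoded by 3 genes. Atp5g1 had signals of 4060.1, 4169, 4684, 4567 and 4668 in ob/ob, 3984 to 4713 (median 4318) in STZ and 4438 to 4993 (median 4698) in control hypothalami. Its groups overlapped, and the differences were -0.085 ± 0.052 in ob/ob and -0.11 ± 0.049 in STZ (limma adjusted p = 0.557). Atp5g2 stood at 0.031 ± 0.060 in ob/ob and -0.0059 ± 0.057 in STZ, and Atp5g3 at -0.048 ± 0.061 in ob/ob and -0.024 ± 0.058 in STZ. The 4 genes of the peripheral stalk, which keeps the head from turning, all lay below 0 in ob/ob, from -0.045 to -0.0013. In STZ 3 of them lay above 0, up to 0.029. Atp5j2, a small membrane subunit, had signals of 14359, 13988, 14494, 14558 and 13562 in ob/ob, 13697 to 15446 (median 14755) in STZ and 14495 to 15477 (median 15121) in control hypothalami. The groups overlapped, with differences of -0.079 ± 0.035 in ob/ob (adjusted p = 0.38) and -0.028 ± 0.034 in STZ.

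Set directly against each other, ob/ob and STZ hypothalami had no member gene past the threshold. Because the controls are shared, this is also the test of a difference in effect between the models. Of the 84 genes 43 lay above 0, and 0 had groups that did not overlap, beside 0.501% of all genes. The 3 smallest unadjusted p were those of Cox7a2l, given above, Uqcrc1 and Sdhaf1. Uqcrc1 stood at 0.14 ± 0.075, or 0.054 without ob/ob 5, and Sdhaf1 at 0.14 ± 0.073, and neither was near the threshold.

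Probe sets of 1 gene often disagreed in sign, as differences near 0 do. Of the 84 genes 43 had several tested probe sets, and all of them had the same sign in 26 genes in ob/ob against control, in 26 in STZ against control and in 17 in ob/ob against STZ. Over all 146 probe sets, 11 had an unadjusted limma p under 0.05 in ob/ob against control (7.53%, beside 11.9% of all probe sets). There were 6 in STZ against control (4.11%, beside 8.24%) and 1 in ob/ob against STZ (0.685%, beside 3.93%).

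Lists of the wider pathway by function gave 0 calls at an adjusted p under 0.05 in any of the 3 comparisons, beside 0.1% of all genes in ob/ob and 0.0501% in STZ against control. The 31 assembly factors tested include 8 members described above, those named Ndufaf and Sdhaf, and 13 of the 31 lay above 0 in ob/ob and 13 in STZ. An unadjusted limma p under 0.05 was found for 6 of the 31 in ob/ob, beside 12% of all genes, and for 4 in STZ, beside 8.51%, with Ndufaf7 among them in both. The copper chaperone Sco2, which serves complex IV, stood at 0.34 ± 0.11 in ob/ob (limma adjusted p = 0.216) and 0.21 in STZ. Coa3 and Coa6 also help to assemble complex IV. Coa3 stood at -0.16 ± 0.058 in ob/ob and -0.077 in STZ, and Coa6 at -0.19 ± 0.068 in ob/ob and -0.16 ± 0.065 in STZ.

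Of 17 genes of the mobile carriers and ATP export, 6 lay above 0 in ob/ob and 5 in STZ. Cycs, cytochrome c itself, stood at -0.091 ± 0.042 in ob/ob and -0.078 ± 0.040 in STZ, and Coq7, an enzyme of coenzyme Q synthesis, at 0.14 ± 0.059 in ob/ob and 0.093 ± 0.056 in STZ. Coq10a, which binds coenzyme Q, stood at -0.12 ± 0.079 in ob/ob and -0.14 ± 0.076 in STZ. Of 9 genes of uncoupling and alternative electron entry, Gpd2, the mitochondrial glycerol phosphate dehydrogenase, stood at -0.15 ± 0.057 in ob/ob and -0.14 ± 0.054 in STZ. Prodh, which passes electrons from proline to the chain, stood at 0.27 ± 0.091 in ob/ob (limma adjusted p = 0.238) and 0.18 ± 0.087 in STZ. None of these passed the threshold.

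Of 18 genes of mitochondrial biogenesis, 8 lay above 0 in ob/ob and 6 in STZ. The coactivator Ppargc1a, named here for its role after its values were seen, stood at 0.029 ± 0.065 in ob/ob and 0.016 ± 0.062 in STZ. Sirt3, the main mitochondrial deacetylase, stood at 0.19 ± 0.063 in ob/ob (limma adjusted p = 0.208), -0.018 ± 0.060 in STZ and 0.21 ± 0.063 for ob/ob against STZ (adjusted p = 0.918). The nuclear receptor Esrra stood at 0.20 ± 0.077 in ob/ob. In STZ hypothalami Mterf3 and Tfb1m, which act on mitochondrial transcription and ribosomes, stood at -0.15 ± 0.055 and -0.19 ± 0.088. Of the subunits encoded in mitochondrial DNA 1 was tested, ND5 of complex I, which stood at -0.0019 ± 0.067 in ob/ob and 0.0084 ± 0.064 in STZ.

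The neighbours of the chain in the mitochondrion had medians as small as its own. Over 16 citrate cycle enzymes the median was -0.017 in ob/ob and -0.024 in STZ, and over 74 mitochondrial ribosomal proteins it was -0.022 in ob/ob and -0.024 in STZ. Of these ribosomal proteins Mrpl55 stood at -0.23 ± 0.069 in ob/ob and -0.20 ± 0.066 in STZ, Mrpl43 at -0.21 ± 0.067 in ob/ob and Mrpl2 at 0.18 ± 0.065 in STZ, none past the threshold. Of the citrate cycle, 11 of 16 enzymes lay below 0 in each. Dlst and Ogdh, parts of the same 2-oxoglutarate dehydrogenase complex, stood at 0.18 ± 0.076 and -0.093 ± 0.044 in ob/ob and at 0.051 ± 0.072 and -0.087 ± 0.042 in STZ. Suclg1, a subunit of succinyl-CoA ligase, stood at -0.064 ± 0.060 in ob/ob and -0.14 ± 0.058 in STZ (limma adjusted p = 0.532).

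Of 15 hypothalamus markers 8 passed the signal filter, of which 6 lay below 0 in ob/ob and 5 in STZ. Markers of neighbouring regions had a higher mean level in both models than in control. Pomc, the precursor of melanocortin peptides, was lower in ob/ob (-0.75 ± 0.12, limma adjusted p = 0.0121) and in STZ (-0.65 ± 0.12, adjusted p = 0.0384). It was the 1 hypothalamus marker called. The 2 above 0 in ob/ob were Npy and Avp, neither past the threshold. Npy, the feeding peptide, stood at 0.27 ± 0.081 in ob/ob and 0.34 ± 0.077 in STZ. Avp, vasopressin, stood at 0.19 ± 0.12 in ob/ob and 0.18 ± 0.11 in STZ. An unadjusted limma p under 0.05 was found for 5 of the 8 in ob/ob, 4 of them lower, beside 12% of all genes. It was found for 2 in STZ, 1 of them lower, beside 8.51%. The mean log2 signal of the 8 was 11.58 in ob/ob, 11.69 in STZ and 11.77 in control hypothalami. The mean log2 signal of 12 tested markers of striatum, cortex and thalamus was 10.17 in ob/ob (10.05 to 10.29), 10.06 in STZ (9.84 to 10.22) and 9.86 in control hypothalami (9.69 to 10.00). The STZ and control ranges overlapped, while the ob/ob and control ranges did not. All 12 of these markers lay above 0 in both comparisons with control. Limma called 0 of them, with smallest adjusted p of 0.164 in ob/ob and 0.260 in STZ. An unadjusted limma p under 0.05 was found for 5 in ob/ob, beside 12% of all genes, and for 1 in STZ, beside 8.51%. With the mean level of these 12 markers as a covariate, an alternative added after seeing the data, 0 members were called. In that fit 1 member gene had an unadjusted limma p under 0.05 in each comparison with control, in place of 6. Calls over all 13576 probe sets also fell, to 0 in each comparison with control from 17 in ob/ob and 7 in STZ. Some ob/ob differences from control kept their size with the covariate and others shrank. Ndufv1 stood at 0.20 in place of 0.18 (limma adjusted p = 0.827), and the second brightest Cox6a1 probe set at 0.18 as before. Ndufb5 stood at -0.082 and Ndufc1 at -0.028, each in place of -0.12. The marker level follows the groups, so this fit cannot tell it apart from the model. Neuron markers had mean log2 signals of 12.87 in ob/ob, 12.89 in STZ and 12.91 in control hypothalami. All 8 tested microglia markers lay below 0 in ob/ob, with means of 11.13 in ob/ob, 11.21 in STZ and 11.26 in control hypothalami. Oligodendrocyte markers had means of 13.15 in ob/ob, 13.08 in STZ and 13.03 in control hypothalami, and 1 of the 8 tested, Myrf, was higher in ob/ob (0.46 ± 0.084, limma adjusted p = 0.0305), beside 0.41 ± 0.080 in STZ (adjusted p = 0.0792). Astrocyte markers had means of 12.54 in ob/ob, 12.52 in STZ and 12.54 in control hypothalami. Of the 9 tested, 7 lay above 0 in ob/ob and 4 in STZ. Aqp4 was among those below 0 in both, at -0.29 ± 0.060 in ob/ob (limma adjusted p = 0.0558) and -0.26 ± 0.058 in STZ. The part of these region and cell type markers in the member values was not tested.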

How the data were processed

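RNA of 17 hypothalami was hybridised to 1-colour Affymetrix arrays. The authors deposited 1 intensity per probe set and array, a MAS5 signal per the submitters' processing notes, whose version and scaling target are not given in the sources used here. The linear signals ran from 0.1 to 48576.7. Every array had the same trimmed mean (1500.4, with 2% trimmed at each end), array medians of 638 to 708 and correlations between arrays of 0.954 to 0.972; 0 pairs of arrays were identical. The number of arrays limits the precision.

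Groups and replicate numbers came from the titles. The labels name neither batches nor pairs, and p-values measure only the spread between these samples. The 64 control probe sets were left out, as were 8 probe sets with several symbols that include a member name. Ndufa4l2 was not analysed here. Log2 signals of all probe sets above the 40th percentile of mean log2 signal were fitted with limma 3.58.1 (lmFit, eBayes with a trend) in R 4.3.3, as 3 group means over all 17 arrays, with Benjamini-Hochberg adjustment over 13576 probe sets. The script was tested on simulated data. A gene is represented by its brightest probe set, cross-hybridising _x_at probe sets only where there is no other (0 member genes). Gene names are those of the platform annotation in GEO, which can be old. The files name no genome build, and coordinates are given only for RefSeq promoters.

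Named are members past the threshold, the 2 with the smallest p in each complex and comparison with control, the 3 with the smallest p in ob/ob against STZ, a fixed list of core subunits and tissue forms, and from each pathway list the genes past the threshold or the 2 with the smallest p. The members, lists and rules were chosen with earlier results of these data known, so no list has a test. Alternatives were other filters, quantile normalisation, log2(signal + 50), no variance trend, only the groups compared, a replicate block, all probe sets of a gene averaged and each array left out.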

Additional observations from a re-analysis of the deposited data

Results flagged for a closer look

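In 126 sets of signals (37 named genes and 5 complex means in 3 groups), 7 held 1 array far from the rest of its group by Dixon's ratio, the gap to the nearest array over the range of the group. Chance would mark about 1 in 20 sets, or 6.3. For Uqcrc1, ob/ob 5 stood at 11720 against 8298 to 8849 in the other ob/ob arrays (ratio 0.814), and control 4 at 9978 against 7926 to 8355 in the other control arrays (0.771). For Atp5a1, ob/ob 5 stood at 20106 against 17829 to 18370 (0.751). For Cox7a2, STZ 2 stood at 21449 against 23490 to 24514 (0.681). For Sdhd, STZ 3 stood at 4794 against 3423 to 3819 (0.675). For Uqcr10, control 4 stood at 6399 against 4579 to 5009 (0.732). For Ndufv1, control 2 stood at 6848 against 7577 to 8025 (0.638), and without it the difference of Ndufv1 between ob/ob and control was 0.15.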

How the results depend on the processing

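Limma called 0 members in 74 of the 75 alternatives and 1, the second brightest probe set of Cox6a1 (adjusted p = 0.0389), in ob/ob against control after quantile normalisation. Over all 13576 probe sets it called 29 in that setting and comparison, in place of 17. Among brightest probe sets the smallest adjusted p of a named gene was 0.0557 (Ndufv1), in the same setting. The count of member genes at an unadjusted p under 0.05 in STZ against control, 6 as reported, was 11 after quantile normalisation and 1 with the striatum, cortex and thalamus marker level as covariate, a setting chosen after seeing the data. With 1 array left out it ran from 3 (without STZ 2) to 10 (without STZ 3). In ob/ob against control the count, 6 as reported, was 1 with that covariate and ran from 2 (without ob/ob 5) to 8 with 1 array left out. In ob/ob against STZ it ran from 0 to 3 (without ob/ob 1). The counts at an unadjusted p in this section stand without the share of all genes in the same setting. Their moves are therefore not read as particular to the members. With that covariate limma called 0 of all 13576 probe sets in each comparison with control, in place of 17 in ob/ob and 7 in STZ. The covariate did not overlap between ob/ob and control arrays, so that fit cannot tell the marker level apart from the model. The complex II median in ob/ob against control, -0.047 as reported, was 0.0044 with the covariate, and the complex IV median in ob/ob against STZ, -0.0094 as reported, was 0.036 after quantile normalisation; the cause was not tested. The 390 alternatives of complex medians ran from -0.065 to 0.036, and 41 changed sign. Of 2883 alternatives of named genes, each by its brightest probe set or their mean, 168 changed sign and 0 passed the threshold. Some alternatives, such as no variance trend or leaving out an array of the group not compared, cannot change a difference. They add to the totals without being able to change a sign, and the means over probe sets have no p. Correlations of deviations in 16 same-numbered pairs ran from -0.17 to 0.11, with a median of 0.023 beside 0.0014 for pairs of other numbers. Of the 17 arrays 2 were closest to their own number. Whether the replicate numbers mark pairs or a shared batch was not tested. With the number as a replicate block, 0 members were called in each comparison, and 5 member genes in ob/ob and 6 in STZ against control had an unadjusted p under 0.05. The number of arrays and the signal over background limit what these data show of dim members.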

Other observations

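Cytosolic ribosomal proteins, a group outside the mitochondrion, were described beside all genes and beside the 895 genes as bright as most members, since bright genes lay mostly below 0. In ob/ob against control 31 of 40 tested lay below 0 (77.5%), beside 48.1% of all genes and 65.4% of the bright ones, with a median of -0.030 beside -0.024 for the bright ones. In STZ against control 16 of 40 lay below 0 (40%), beside 48.3% and 61.6%, with a median of 0.014 beside -0.013. In ob/ob against STZ 34 of 40 lay below 0 (85%), beside 48.8% and 59.4%, with a median of -0.041 beside -0.0087. Limma called 0 of the 40 in each comparison. Those with the smallest p were Rps3a1 and Rpl7 in ob/ob against control, at -0.11 ± 0.042 and -0.11 ± 0.042, and Rpl39 and Rps14 in STZ against control, at 0.19 ± 0.11 and 0.072 ± 0.051. An unadjusted p under 0.05 was found for 3 in ob/ob against control, beside 12% of all genes, for 0 in STZ against control, beside 8.51%, and for 3 in ob/ob against STZ, beside 4.19%.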
